A study of Arabidopsis thaliana with 11 samples.

Results

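Broad SEP3 domains are binding sites (BSs) of the MADS-domain transcription factor SEPALLATA3 (SEP3) that spanned at least 800 bp, from first to last position, 8 days after floral induction. They were selected on width in the day 8 list alone. Of 7815 SEP3 BSs at day 8, 608 (7.78%) met the limit and the other 7207 were narrower. Each BS is a row of its list, and the plots call BSs rows. The BSs were mapped by ChIP-seq, in which protein-bound DNA is precipitated with an antibody and sequenced. All samples were Arabidopsis thaliana inflorescences of ecotype Landsberg with the genotype pAP1::AP1-GR ap1 cal, treated with dexamethasone (DEX) each day and harvested at 2, 4 or 8 days. In this double mutant the inflorescence keeps forming meristems until DEX moves AP1 fused to the glucocorticoid receptor (AP1-GR), expressed from the AP1 promoter, into the nucleus, and flowers then start to form together. SEP3 was precipitated with a peptide antibody, APETALA1 (AP1) as AP1-GR with an antibody against the receptor, and the mock control of each day with pre-immune serum. Each factor and day has 1 list that combines 2 biological replicates by the titles, which leaves no measure of the spread between replicates, and each mock control was 1 sample. The SEP3 samples titled day 2 carry a tissue label of 4 days, and every SEP3 day 2 value rests on their titles.

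SEP3 and AP1 belong to the MADS-domain family, whose members act in complexes of several family members and control the change from meristem to flower and the identity of floral organs. SEP3 is a partner of most floral homeotic proteins, while AP1 specifies the floral meristem and, later, sepals and petals. These proteins bind the CArG box, here searched as CC, then 6 bases of A or T, then GG, which reads as the same pattern on either strand. A complex can hold more than 1 box by looping the DNA between them, so a wide bound region may hold several contacts.

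The following TAIR10 sequences show CArG boxes inside broad domains beside regulators of flower development, and they are given because the box is the element these proteins recognise. Each is the plus strand, 5′ to 3′, and capitals mark the box. AG specifies stamens and carpels, JAG promotes organ growth, BRC1 (TCP18) restrains branching, AP2 specifies the perianth, FUL acts in meristem and fruit, and TEM1 and SOC1 repress and promote flowering. The names are those of the genes the authors list beside each domain.
AG, chr4:10381243-10381282, box starting 1 bp from the summit: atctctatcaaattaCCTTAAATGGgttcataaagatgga
BRC1, chr3:6380836-6380875, box starting 2 bp from the summit: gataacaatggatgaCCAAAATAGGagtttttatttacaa
JAG, chr1:25684064-25684103, box starting 4 bp from the summit: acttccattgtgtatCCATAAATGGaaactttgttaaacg
AP2, chr4:17397970-17398009, box starting 43 bp from the summit: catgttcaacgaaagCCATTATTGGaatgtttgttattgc
FUL, chr5:24508510-24508549, box starting 62 bp from the summit: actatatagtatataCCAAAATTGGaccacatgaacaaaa
TEM1, chr1:8983894-8983933, box starting 97 bp from the summit: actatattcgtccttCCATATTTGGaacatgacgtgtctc
SOC1, chr2:18811812-18811851, box starting 687 bp from the summit: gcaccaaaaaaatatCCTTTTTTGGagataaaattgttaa
AP1, chr1:25985757-25985796, box starting 2165 bp from the summit: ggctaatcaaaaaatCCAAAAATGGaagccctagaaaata

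In AG, BRC1 and JAG the box lay at the summit, in FUL, AP2 and TEM1 within 97 bp of it, and in SOC1 and AP1 far from it. The last 2 domains are wide, at 1708 bp and 2700 bp, and their summits held no box within 50 bp. A domain of 953 bp with the genes SCL13 and AT4G17240 listed beside it held 2 boxes whose starts are 11 bp apart, the closest pair in any broad domain. A pair 13 bp apart lay in a domain of 827 bp beside CRF5, AT2G46290 and AT2G46300. Its boxes started 260 and 247 bp from the summit, against 21 and 10 bp for the SCL13 pair. Both pairs were chosen after the sequences had been searched.
SCL13, chr4:9665742-9665782: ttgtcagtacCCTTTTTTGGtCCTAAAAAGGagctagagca
CRF5, chr2:19009678-19009720: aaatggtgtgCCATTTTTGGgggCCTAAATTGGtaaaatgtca

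At day 8 the broad domains covered 689312 bp, 20.3% of all bases in the list. Their median width was 996 bp and the widest spanned 3525 bp, against a median of 344 bp for the narrower BSs. In all, 311 domains were 800 to 999 bp wide, 220 were 1000 to 1499 bp and 77 were wider. Fold enrichment, the ratio of SEP3 signal at the summit over its control background as the peak caller of the authors gave it, had a median of 5.64 in broad domains and 3.16 in narrower BSs. These values come from the list that defined the domains and are a description only. The limit of 800 bp falls within a continuous range of widths. Just inside it, at 800 bp, lay a BS beside AT3G12950 (fold enrichment 3.99) and another beside RAC2 (4.93). Just outside it, at 799 bp, were BSs beside PPCK1 (4.34), PSY (6.49) and AT4G14740 (6.02).

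**Figure D1:**
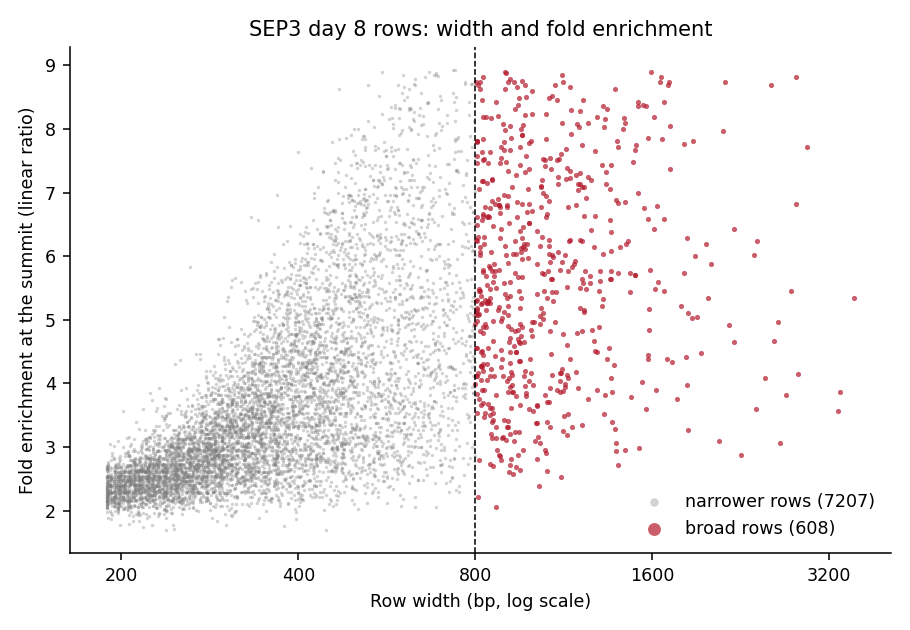
Width (bp, log scale) and fold enrichment (linear ratio at the summit) of each SEP3 day 8 BS; red points are the 608 broad domains, grey points the 7207 narrower BSs and the dashed line marks 800 bp. Wider BSs had higher fold enrichment on the whole (Spearman's rho 0.727 over 7815 BSs), while within the broad domains width and fold enrichment were hardly related (rho 0.100).

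Across the list, width and fold enrichment were related (Spearman's rho 0.727, 7815 BSs), and the plot of width against fold enrichment shows broad domains mostly at the upper end. Both are measured on the same reads, so the relation is a description. Among the broad domains alone rho was 0.100, and domains of 1500 bp or more had a median fold enrichment of 5.73 against 5.34 for those of 800 to 999 bp.

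To ask whether the broad domains existed before day 8, the SEP3 lists of days 4 and 2 were examined. A SEP3 day 4 summit lay within 150 bp of the day 8 summit in 514 of 608 broad domains (84.5%, Wilson 95% interval 81.4 to 87.2%), against 71.2% of all SEP3 BSs of day 8 and 70.1% (69.0 to 71.1%) of the narrower ones. The difference was 14.5 percentage points (95% interval 11.2 to 17.3, two-sided Fisher's exact test, adjusted p = 2.59e-15, Benjamini-Hochberg over 7 tests). By overlap of at least 1 bp the shares were 98.4% and 72.8%, and 10 broad domains overlapped no SEP3 BS of day 4. In 84 broad domains a day 4 BS overlapped but its summit lay more than 150 bp away, as in 197 narrower BSs, and a wide domain has more room for this. The median summit distance was 17 bp in broad domains and 16 bp in narrower BSs with an overlapping day 4 BS. Among BSs at or above the median fold enrichment of the broad domains, the summit shares had the opposite order. They were 95.4% in broad domains and 99.6% in narrower BSs (two-sided Fisher's exact test, adjusted p = 2.27e-05). By overlap, every broad domain at a fold enrichment of 5 or more had a day 4 BS. So did 99.5% of narrower BSs at 5 to 6 and all of those at 6 or more. The lower share in these broad domains is thus one of summit distance, not of a missing day 4 BS. Since BSs of 1 list do not stand for separate plants, every p compares the BSs of these lists alone.

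The domains were already wide at day 4. Where a day 4 summit lay within 150 bp, the day 4 BS was at least 500 bp wide in 427 of 514 broad domains (83.1%, 79.6 to 86.1%), against 24.7% of all such BSs and 18.7% (17.7 to 19.8%) of the narrower ones. The difference was 64.3 points (60.7 to 67.5, two-sided Fisher's exact test, adjusted p = 6.09e-192). At or above the median fold enrichment of the broad domains the shares were 91.4% and 49.5%, a difference of 42.0 points. The median day 4 width was 836 bp for broad domains and 343 bp for narrower BSs. The broad domains were wider at day 8 than at day 4 in 399 of 514 cases (77.6%), with a median ratio of 1.12, and the narrower BSs in 63.6%. The broad domains had been picked for width at day 8, so this last comparison is no test of growth. Seen from day 4, 353 of the 451 SEP3 BSs of at least 800 bp overlapped a broad domain of day 8. No share for the narrower day 4 BSs is given here, and a wide BS has more room to overlap.

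Day 4 BSs lay under the broad domains in several arrangements. The widest overlapping day 4 BS was itself at least 800 bp in 352 domains. It was shorter and alone in 152, and in 94 domains 2 or more day 4 BSs lay under it, all of them under 800 bp. Altogether 127 broad domains (20.9%) overlapped 2 or 3 day 4 BSs, against 0.472% of narrower BSs, a share that a wider region has more room to reach. The widest domain of all, 3525 bp beside AT3G59930 and AT3G59940, lay over 3 day 4 BSs, the widest of 604 bp. The domain of 2806 bp beside SPL5, a regulator of the vegetative phase change and flowering, lay over 3 BSs of up to 934 bp. The domain at GRF5, a growth regulator, was 2813 bp at day 8 and 3048 bp at day 4. That beside SHN1, a regulator of cuticle formation and epidermal cell shape, was 2111 bp at day 8 and lay over 3 day 4 BSs of up to 751 bp.

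**Figure D2:**
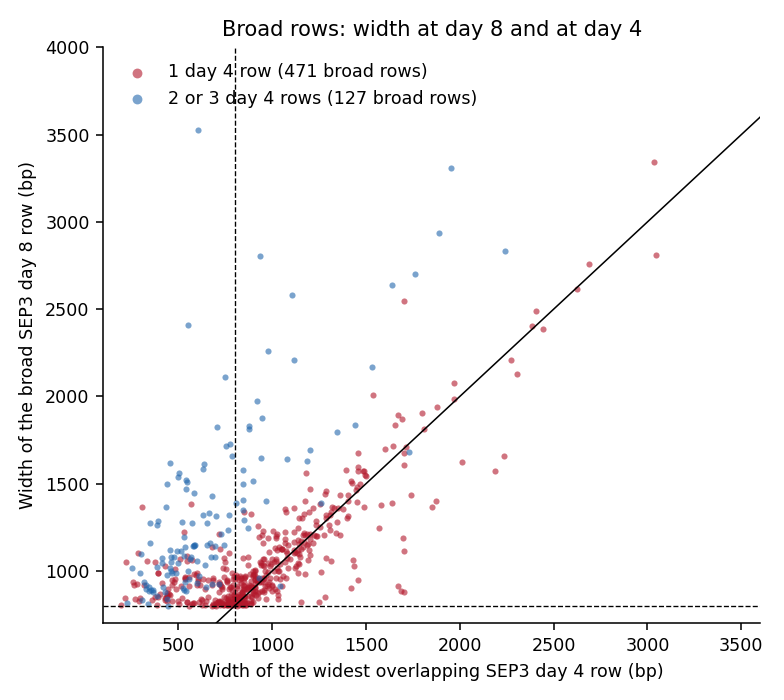
Width in bp of each broad domain at day 8 (y axis) and of its widest overlapping SEP3 BS at day 4 (x axis); red points are the 471 domains over 1 day 4 BS, blue points the 127 over 2 or 3, the solid line marks equal width and dashed lines 800 bp. Width on the 2 days was loosely related where summits lay within 150 bp (Spearman's rho 0.407, 514 domains), 152 red points lie at a day 4 width under 800 bp, and 94 blue points lie left of the vertical dashed line.

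At day 2 the same direction was seen. A SEP3 day 2 summit lay within 150 bp in 284 of 608 broad domains (46.7%, 42.8 to 50.7%), against 16.2% of all SEP3 BSs of day 8 and 13.6% (12.9 to 14.4%) of the narrower ones. The difference was 33.1 points (29.1 to 37.1, two-sided Fisher's exact test, adjusted p = 1.27e-76). The share was higher in wider domains, from 38.9% (33.7 to 44.4%) of domains of 800 to 999 bp to 51.4% (44.8 to 57.9%) at 1000 to 1499 bp and 64.9% (53.8 to 74.7%) at 1500 bp or more. With a reciprocal overlap of 50% the shares were 8.72% and 3.95%, a difference of 4.76 points, and with a −log10 q of 10 or more in both lists they were 29.1% and 7.08%. The SEP3 day 2 list is short, with 1776 BSs of median width 144 bp, and 38 of them reached 800 bp. Of these 38, 35 overlapped a broad domain of day 8, with no share for the narrower day 2 BSs to set beside it. Among BSs at or above the median fold enrichment of the broad domains the shares were 69.0% and 62.5%, and the difference no longer passed 0.05 (6.42 points, two-sided Fisher's exact test, adjusted p = 0.0733). By overlap, 328 broad domains had a SEP3 BS at both earlier days, 270 at day 4 but not day 2, none at day 2 alone and 10 at neither.

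**Figure D3:**
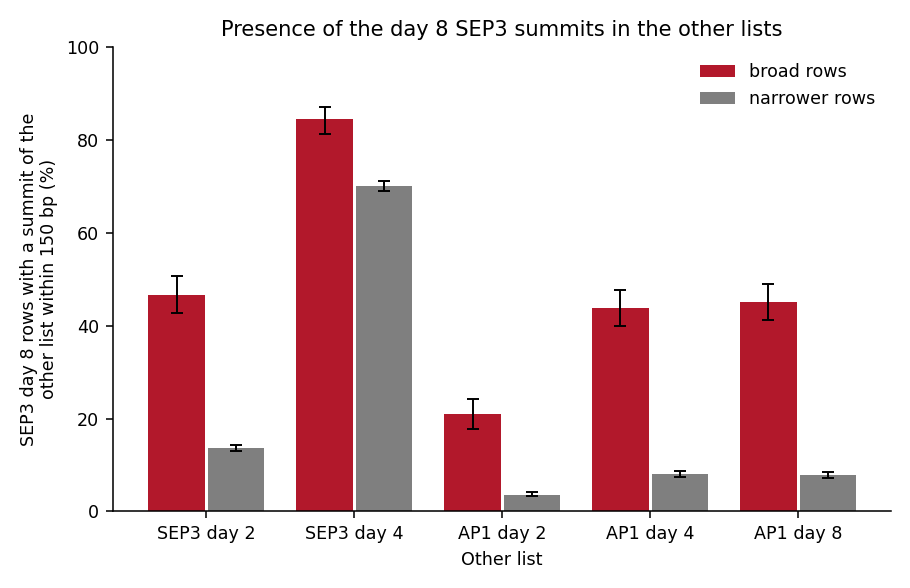
Share (%) of SEP3 day 8 BSs with a summit of another list within 150 bp, for the 608 broad domains (red) and the 7207 narrower BSs (grey), with Wilson 95% intervals that cover counting error only. Broad domains stood higher in each list, from 20.9% against 3.61% for AP1 day 2 to 84.5% against 70.1% for SEP3 day 4.

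Binding of AP1 was compared in the same way, first in the lists of days 4 and 2, which were called against other mock samples than the SEP3 day 8 list. An AP1 day 4 summit lay within 150 bp in 266 of 608 broad domains (43.8%, 39.9 to 47.7%), against 10.9% of all SEP3 BSs of day 8 and 8.08% (7.47 to 8.73%) of the narrower ones. The difference was 35.7 points (31.7 to 39.7, two-sided Fisher's exact test, adjusted p = 9.49e-108). For AP1 at day 2 the counts were 127 of 608 (20.9%, 17.8 to 24.3%), against 4.95% of all BSs and 3.61% (3.20 to 4.06%) of the narrower ones. This difference was 17.3 points (14.2 to 20.7, two-sided Fisher's exact test, adjusted p = 2.13e-49). Unlike the SEP3 comparison, both held among BSs at or above the median fold enrichment of the broad domains, at 70.6% against 41.3% for day 4 and 32.7% against 16.7% for day 2. A reciprocal overlap of 50% is a rule that a narrow AP1 BS inside a wide domain cannot meet. By it the day 4 shares were 8.22% and 3.97%, and the day 2 shares, 1.81% and 1.04%, gave a p above 0.05 (two-sided Fisher's exact test, adjusted p = 0.141). With a −log10 q of 10 or more in both lists the day 2 shares were 9.27% and 1.56%.

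SEP3 and AP1 at day 8 were called against the same mock control, so their overlap is given without a test. An AP1 day 8 summit lay within 150 bp in 274 broad domains (45.1%, 41.2 to 49.0%), against 10.7% of all SEP3 BSs of day 8 and 7.83% (7.23 to 8.47%) of the narrower ones. By overlap, 341 broad domains held an AP1 BS of day 8, and 83 of them held 2 or 3. All 34 AP1 BSs of day 8 that were at least 800 bp wide overlapped a broad SEP3 domain. A wide BS has more room to overlap, and no share over all 1075 AP1 BSs of day 8 is given here. AP1 BSs were mostly narrow, with medians of 178, 267 and 241 bp at days 2, 4 and 8. In the 341 domains the widest overlapping AP1 BS of day 8 had a median of 355 bp, 31.5% of the width of the domain, so AP1 was mostly called in a smaller region inside a wide SEP3 domain.

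By overlap, 127 broad domains (20.9%) held AP1 at all 3 days, against 1.87% of narrower BSs, and 118 were in all 6 lists. Another 76 held AP1 at day 8 only, 31 at day 4 only and 1 at day 2 only. AP1 was found at no day in 215 (35.4%), against 87.8% of narrower BSs. The AP1-free domains had a median fold enrichment of 4.49 and a median width of 932 bp, and the domains with AP1 at all 3 days 7.39 and 1080 bp. SEP3 at day 2 overlapped 30.7% of the AP1-free domains and 92.9% of those with AP1 at all 3 days. Over all broad domains it overlapped 37.0% at a fold enrichment of 4 to 5 and 81.6% at 7 to 8. The AP1 and SEP3 lists of day 2 share a mock control, so this comparison is a description and was not tested. Summits lay in transcribed genes in 36.7% of AP1-free and 31.5% of always AP1-bound domains.

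**Figure D4:**
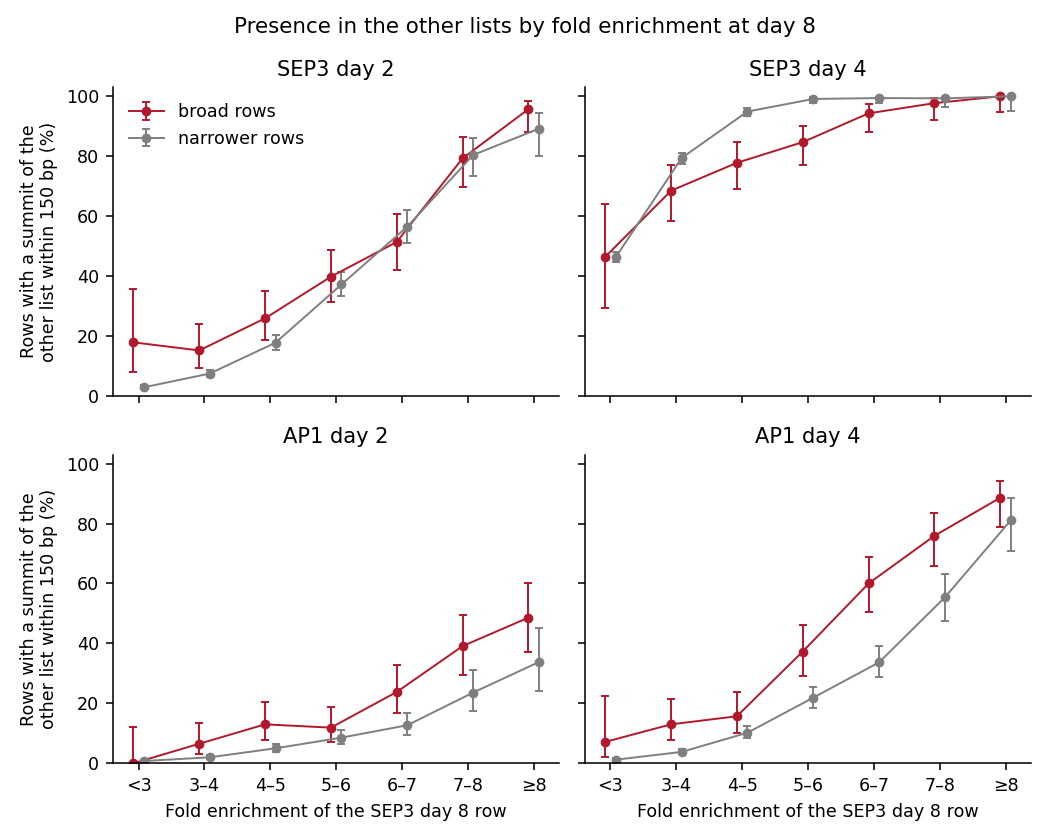
Share (%) of broad domains (red) and narrower BSs (grey) with a summit of the SEP3 day 2, SEP3 day 4, AP1 day 2 or AP1 day 4 list within 150 bp, by fold enrichment of the SEP3 day 8 BS; bars are Wilson 95% intervals. At a fold enrichment of 6 to 7 the AP1 day 4 shares were 60.0% and 33.7%, while the SEP3 day 2 shares were 51.4% and 56.5%.

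Because broad domains had higher fold enrichment, shares were also read within bands of it, as a description. For AP1 at day 4 the broad domains stood above the narrower BSs at the same fold enrichment, with 37.3% (29.1 to 46.3%) against 21.9% (18.6 to 25.5%) at 5 to 6, 60.0% (50.4 to 68.9%) against 33.7% (28.7 to 39.0%) at 6 to 7, and 75.9% (65.9 to 83.6%) against 55.4% (47.4 to 63.2%) at 7 to 8. At 8 and over the values were 88.6% (79.0 to 94.1%) and 81.1% (70.7 to 88.4%), with intervals that overlap. For SEP3 at day 2 the values at 5 to 6 were 39.8% and 37.2%, and at 6 to 7 they were 51.4% and 56.5%, close to each other. At a fold enrichment of 3 to 4 the intervals did not overlap, with 15.2% (9.29 to 23.9%) of broad domains and 7.49% (6.42 to 8.73%) of narrower BSs holding SEP3 at day 2. Nor did they under 3, with 17.9% (7.88 to 35.6%) of 28 broad domains and 2.9% (2.37 to 3.54%) of narrower BSs. At 4 to 5 they overlapped, with 25.9% (18.6 to 34.9%) and 17.8% (15.5 to 20.3%). For SEP3 at day 4 the broad domains stood lower by summit distance at 4 to 5, at 77.8% (69.1 to 84.6%) against 94.9% (93.3 to 96.1%), whereas by overlap all of those domains and 96.7% of the narrower BSs had a day 4 BS. By summit distance they were also lower at 3 to 4 (68.5% against 79.4%) and 5 to 6 (84.7% against 99.1%). The same held at 6 to 7 (94.3% against 99.4%) and 7 to 8 (97.7% against 99.3%). By overlap, 91.3% of broad domains and 81.7% of narrower BSs at 3 to 4 had a day 4 BS. All broad domains at 5 to 6, 6 to 7 and 7 to 8 had one.

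The position of the domains in the genome was examined with the TAIR10 annotation. The summit lay inside a transcribed gene in 218 of 608 broad domains (35.9%, 32.1 to 39.7%), against 35.5% of all SEP3 BSs of day 8 and 35.5% of the narrower ones. The difference of 0.376 points did not pass 0.05 (95% interval -3.50 to 4.42, two-sided Fisher's exact test, adjusted p = 0.860), and with protein-coding genes only it was -0.622 points. When genes were extended by 1000 bp upstream the shares were 64.8% and 69.0% (two-sided Fisher's exact test, adjusted p = 0.0422), lower in the broad domains. Of the broad summits, 28.9% lay in promoters (the 1000 bp before a start) and 35.2% in other intergenic sequence, compared with 33.5% and 31.0% of narrower summits. The 5′ UTR held 9.70% and 14.6%, and coding exons 6.25% and 3.34%. The median distance to the nearest protein-coding start was 1230 bp for broad and 923 bp for narrower summits. Another SEP3 BS of day 8 lay within 1000 bp of 339 broad domains (55.8%) and of 40.4% of the narrower BSs.

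A CArG box lay within 50 bp of the summit in 41 of 608 broad domains (6.74%, 5.01 to 9.02%), against 5.81% of all SEP3 BSs of day 8 and 5.73% (5.22 to 6.29%) of the narrower ones. The difference of 1.01 points did not pass 0.05 (95% interval -0.809 to 3.35, two-sided Fisher's exact test, adjusted p = 0.373). Among BSs at or above the median fold enrichment of the broad domains it turned, with 8.50% in broad domains and 13.7% in narrower BSs (two-sided Fisher's exact test, adjusted p = 0.0235). With 1 mismatch allowed the shares were 37.0% and 33.5%. Over their whole length 16.9% of broad domains and 8.60% of narrower BSs held a box, but per length the broad domains held fewer, with 1.62 boxes per 10 kb against 2.38. Most broad domains had no box at all (505), 94 had 1 and 9 had 2. The median GC content was 33.2% in broad domains and 33.7% in narrower BSs.

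The genes beside the broad domains were then described, from the loci the authors list with each BS. The domains listed 855 genes, of which 834 are in the annotation, and 60 domains listed none. Most genes stood beside 1 broad domain, 41 beside 2, and SEP3 itself and FUL beside 3. A gene beside a domain is a neighbour by position, and no expression was measured in these samples. Of the listed genes, 108 of 834 beside broad domains (12.9%) had a RefSeq product with a word used for transcription factor families, against 7.77% of all listed genes and 7.18% of those beside narrower BSs only. The words include zinc finger, which also names ubiquitin and SUMO ligases and other proteins, and without it the shares were 10.6% beside broad domains and 5.18% beside narrower BSs only. Among BSs with under 25% of their bases in protein-coding genes the shares were 13.3% and 8.87%. By family, chosen after the values were seen, the share of listed genes beside a broad domain was 10.3% over all listed genes. It was 4 of 9 for growth-regulating factors, 5 of 12 for ERF proteins, 5 of 13 for squamosa promoter-binding proteins, 6 of 16 for AP2/B3 proteins, 13 of 44 for MADS proteins and 15 of 53 for homeobox proteins. The largest families were nearer to the share over all genes, with 20 of 165 for zinc finger, 10 of 71 for bHLH and 10 of 63 for MYB domain proteins, and WRKY proteins had 3 of 34.

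The 6 gene lists covered regulators of flowering and flower development. They were chosen with earlier results of these data known, so their shares are a description and were not tested. Of the broad domains, 57 (9.38%) listed a member of at least 1 list, against 4.58% of all SEP3 BSs of day 8 and 4.18% of the narrower ones. By overlap, 35 of these 57 held SEP3 at day 2 and 55 SEP3 at day 4, against 53.9% and 98.4% of all broad domains. AP1 overlapped 28 at day 2, 39 at day 4 and 41 at day 8, against 26.5%, 49.8% and 56.1% of all broad domains. AP1 was present at all 3 days in 25 and at no day in 13, against 20.9% and 35.4% of all. Their median width was 1130 bp and their median fold enrichment 6.40. Of the genes with any SEP3 BS at day 8, a broad domain was listed with 47.8% of the MADS-box genes, 10 of 25 meristem and floral identity genes, 23.1% of the boundary and polarity genes, 37.9% of the growth genes, 30.4% of the late organ genes and 11.1% of the hormone genes. Over all protein-coding genes with a BS this share was 10.2%, close to that of the hormone genes.

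Among MADS-box genes, 11 of 28 (39.3%) had a broad domain, against 2.89% of all protein-coding genes, and their 16 domains had a median fold enrichment of 7.06. The widest lay at AP1, at chr1:25985697-25988396, and ran from -2047 to 652 bp relative to the gene start, with a fold enrichment of 3.81. It spanned 2700 bp at day 8, where AP1 had a BS of 2156 bp, while at day 4 it lay over 2 SEP3 BSs of up to 1761 bp and at day 2 over 3 of up to 948 bp. AP1 protein had 3 BSs there at day 2 and 2 at day 4. The plants also carry the AP1 promoter in the transgene, and reads from the transgene and the gene cannot be told apart.

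SEP3, the gene of the precipitated factor, had 3 broad domains, which behaved differently. The upstream domain at chr1:8598337-8599240, with its summit 2750 bp before the SEP3 start, was 904 bp wide with a fold enrichment of 8.88 and was present in all 6 lists. The domain at the start, chr1:8595398-8596348, was 951 bp wide with a fold enrichment of 4.65 and was also in all 6 lists. Between them, the domain of 1312 bp at chr1:8596585-8597896 (5.22) overlapped 2 SEP3 BSs of day 4 and 2 AP1 BSs of day 8 but none at day 2 and no AP1 BS of day 4. By overlap, the domain in the middle was thus found later than its neighbours. At the start domain the day 8 summit lay at -39 bp from the gene start. The SEP3 summits of days 2 and 4 lay at 395 and 995 bp, so neither was within 150 bp of it.

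**Figure D5:**
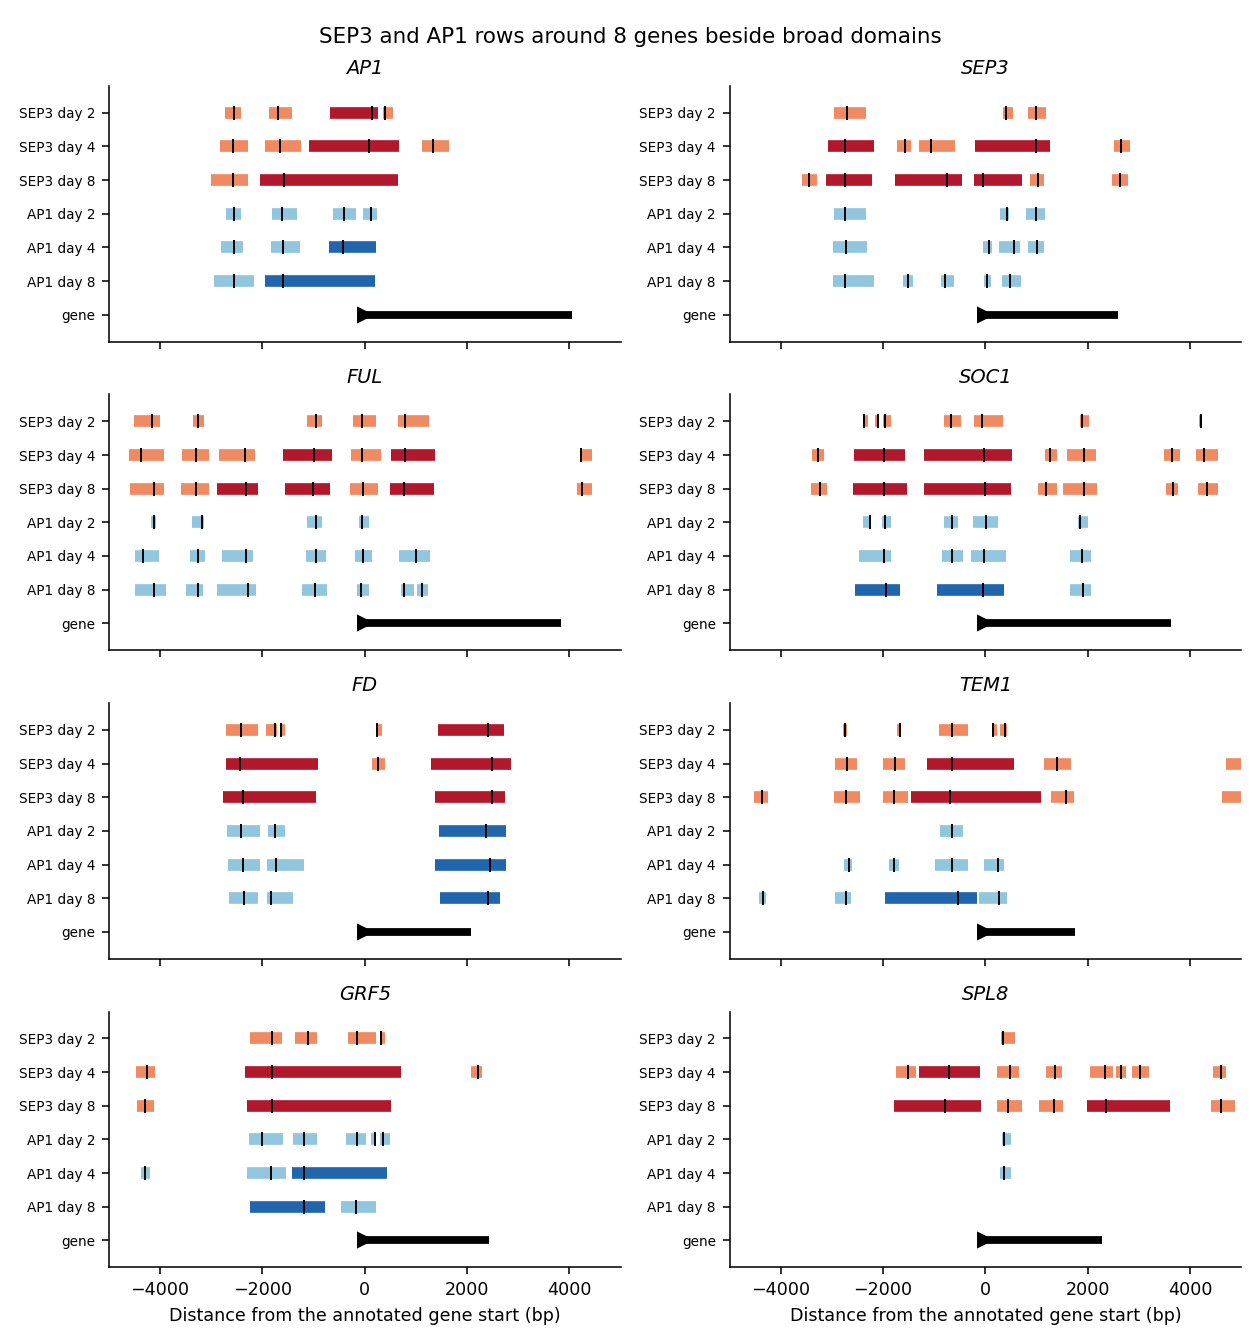
BSs of SEP3 and AP1 at days 2, 4 and 8 around genes with broad domains, as distance in bp from the gene start; dark red (SEP3) and dark blue (AP1) bars are at least 800 bp wide, orange and light blue bars are narrower, black ticks are summits and the black bar is the gene with an arrow at its start. At AP1 the day 8 domain of 2700 bp covers the place of several shorter BSs of days 2 and 4.

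FUL had domains of 882 bp, 855 bp and 806 bp, with fold enrichments of 6.78, 7.20 and 7.79. All 3 held SEP3 at day 4 and AP1 at days 4 and 8, and the one of 882 bp was the only one with AP1 at day 2. SOC1, which integrates flowering signals, had a domain of 1708 bp across its start (8.74) and another of 1071 bp upstream (7.55), both in all 6 lists. At the first, SEP3 spanned 1712 bp at day 4 and AP1 1316 bp at day 8. The floral homeotic genes varied. AP3 (petals and stamens) had a domain of 902 bp (7.48) in all 6 lists. AG (stamens and carpels) had a domain of 1019 bp (6.40) at chr4:10380941-10381959 with SEP3 at both earlier days and AP1 at days 2 and 4 but not 8. The domain listed with PI, the partner of AP3, was 1132 bp wide (3.48), had its summit in a coding exon of the neighbour BCB and overlapped no SEP3 BS of day 2 or 4. SEP4 (1233 bp, 6.92) and AGL15 (1204 bp, 8.28) were in all 6 lists, and SVP, a flowering repressor (952 bp, 7.44), in all but AP1 at day 8. AGL71 (939 bp, 2.68) was the one MADS-box domain without AP1 at any day.

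Of 31 genes for meristem and floral identity, 10 (32.3%) had a broad domain, 11 domains in all, and every one overlapped a SEP3 BS of day 4. The widest lay at TEM1, a flowering repressor, at chr1:8982225-8984770, with 2546 bp and a fold enrichment of 8.69, in all 6 lists, over SEP3 BSs of 1705 bp at day 4 and 582 bp at day 2. FD, the bZIP partner of the flowering signal FT, had domains of 1813 bp (7.77) and 1378 bp (4.29). The second was wide throughout, at 1288 bp and 1578 bp for SEP3 at days 2 and 4, and at 1312 bp, 1375 bp and 1170 bp for AP1 at days 2, 4 and 8. It held the one AP1 BS of day 2 that reached 800 bp. AP2 (1166 bp, 8.29) was in all 6 lists, while LFY (969 bp, 6.19), the master regulator of floral identity, held SEP3 at day 4 and AP1 at days 4 and 8 but neither factor at day 2. LMI1 (HB51), an activator of CAL (999 bp, 6.71), held AP1 at all 3 days without SEP3 at day 2. The domains at KNAT2 (1128 bp, 3.88), LUG (1148 bp, 4.13), TOE1 (916 bp, 4.71) and SNZ (819 bp, 5.38) held no AP1 at any day.

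Of 30 boundary and polarity genes, 6 (20.0%) had a broad domain, with a median fold enrichment of 7.62. PHB, which specifies the upper organ side, had the widest, at 1278 bp (7.65), in all 6 lists. ETT (886 bp, 7.72) and CUC3 (805 bp, 6.61), which act in organ polarity and separation, were likewise in all 6, and at ETT the SEP3 BS of day 4 was wider, at 1686 bp. JAG (975 bp, 8.50) lacked AP1 at day 2 alone. LOB (1119 bp, 7.60) and KAN2 (1120 bp, 4.16) held no AP1 at any day, so a high fold enrichment did not always come with AP1.

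Of 32 growth genes, 11 (34.4%) had a broad domain, 12 domains with a median width of 1250 bp. GRF5, at chr3:4605771-4608583, had the widest, 2813 bp with a fold enrichment of 8.81, and lay over 4 SEP3 and 5 AP1 BSs of day 2. At day 4 SEP3 spanned 3048 bp and AP1 had 2 BSs of up to 1862 bp. GRF2 (1218 bp, 8.45) and GRF3 (1182 bp, 5.92) also held AP1, whereas GRF8 (947 bp, 4.69) did not. The broad domains at the squamosa promoter-binding genes split. SPL5 (2806 bp, 6.82), SPL4 (1513 bp, 6.99) and SPL9 (1176 bp, 5.88) held SEP3 at day 2 and AP1 at days 4 and 8. Both domains at SPL8 (1693 bp, 4.39, and 1617 bp, 5.48) held SEP3 at day 4 only among the earlier lists and no AP1. The SPL8 gene itself was not free of them. Between the domains a narrower SEP3 BS of day 8, from 225 to 713 bp after the start, overlapped SEP3 of day 2 and AP1 of days 2 and 4. BRC1 (1291 bp, 8.19) was in all 6 lists, and AIL7 (950 bp, 4.35) and TCP4 (1188 bp, 4.18) held no AP1.

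Of 31 late organ genes 7 (22.6%) had a broad domain, 8 domains in all, of which 7 overlapped SEP3 at day 4 but 1 at day 2, and 7 overlapped AP1 at day 8, 6 at day 4 and none at day 2. Over all broad domains the overlap was 53.9% for SEP3 and 26.5% for AP1 at day 2, and no test of the difference was run. SHN1, at chr1:5281754-5283864, had the widest, 2111 bp with a fold enrichment of 7.96, with neither factor at day 2. NGA2, which acts in style formation, had domains of 1833 bp (3.98) and 1578 bp (5.17), and HEC1, a regulator of the stigma and transmitting tract, one of 1161 bp (6.26), all with AP1 at days 4 and 8. TGA9 (1057 bp, 7.84) held AP1 at days 4 and 8 and TGA10 (911 bp, 5.89) at no day, although both act in anther development. SAP (1445 bp, 6.19) was the domain with SEP3 at day 2. The authors place this gene among those of early patterning in floral meristems, so its late organ label is loose. Of 44 hormone genes 4 (9.09%) had a broad domain. Among hormone genes with any SEP3 BS this was 11.1%, close to the 10.2% of all protein-coding genes with a BS. GA2OX1, a gibberellin-inactivating enzyme (1127 bp, 8.74), and IAA4, an auxin-responsive repressor (1123 bp, 8.85), were in all 6 lists. ARF5 (995 bp, 4.84), an auxin response factor, and PID (988 bp, 4.04), a kinase of auxin transport, lacked SEP3 at day 2.

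Of the 12 widest domains, 3 listed a gene of these lists, compared with 57 of all 608. After the domain of 3525 bp beside AT3G59930 came SZF1, a zinc finger gene of stress responses, with 3342 bp (3.87), and a domain of 3310 bp (3.57) at chr1:29806148-29809457 with no listed gene. They were followed by AT1G79120 (2938 bp, 7.72), CT-BMY (2832 bp, 4.15), GRF5 (2813 bp), SPL5 (2806 bp) and a domain of 2761 bp (5.45) with no listed gene and ERF4 as the nearest start. AP1 (2700 bp), RPN12b and AT5G42050 (2639 bp, 3.07), AT4G29780 (2617 bp, 4.96) and AT1G80440 (2579 bp, 4.67) completed them. SZF1 spanned 3033 bp at day 4 and AT4G29780 2625 bp, so these were wide before day 8. Of the 12, AP1 was found at day 4 in 4, against 49.8% of all broad domains. These were AT1G79120, GRF5, SPL5 and AP1, and they included the 3 of highest fold enrichment.

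The domains of highest fold enrichment were LEJ2 (8.90, 1593 bp), AT3G50650 (8.90, 899 bp), the upstream SEP3 domain (8.88), IAA4 (8.85), FRUCT5 (8.81, 824 bp), JAZ10 (8.81, 1656 bp), GRF5 (8.81) and NAC3 (8.78, 917 bp), then a domain of 962 bp 3193 bp from the start of RAP2.4 (8.76). Next, at 8.74, were 8 tied domains, among them SOC1, GA2OX1, RPT2 (1648 bp), TPS8 (908 bp) and CHL-CPN10 (932 bp). All 17 overlapped SEP3 at days 2 and 4, and CHL-CPN10 was the only one with no AP1 at any day. Such overlap was common at this fold enrichment. Of all broad domains at 8 and over, 97.1% overlapped SEP3 at day 2 and 91.4% AP1 at day 4. For narrower BSs at 8 and over the shares were 89.2% and 81.1%, and all BSs of both groups overlapped SEP3 at day 4. A tied domain of 2130 bp, at chr4:17407726-17409855, listed no gene and lay 4620 bp upstream of SPT, a regulator of carpel development. It was in all 6 lists, at 2304 bp for SEP3 at day 4 and 2117 bp for AP1 at day 8, and the CArG box at its summit is in capitals in the plus strand.
SPT, chr4:17409413-17409513: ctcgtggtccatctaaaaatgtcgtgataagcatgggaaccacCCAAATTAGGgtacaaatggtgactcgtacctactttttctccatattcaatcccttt

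The 10 broad domains with no SEP3 BS at day 4 were weak and mostly beside other genes than those above. Their fold enrichment ran from 2.62 to 3.76, under the median of 5.64, and their width from 857 to 1843 bp. They lay beside AT2G44130, AT2G15880, RD20, NAC019, BCB and PI, ATAF2, NGA1, AT4G36010, BT2 and CKX1. RD20, NAC019 and ATAF2 are known for responses to drought or other stress, and CKX1 degrades cytokinin. AP1 was listed at day 8 in 6 of the 10, against 56.1% of all broad domains. In broad domains of like fold enrichment this share was lower, at 39.3% under 3 and 29.3% at 3 to 4. AP1 was listed at no earlier day in any, against 26.5% of all broad domains at day 2 and 49.8% at day 4. Under a fold enrichment of 3 those shares were 0.0% and 7.14%, and at 3 to 4 they were 8.7% and 16.3%. No test was run on these 10.

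Position within genes was set beside AP1 binding as a description. In 129 broad domains at least 75% of the bases lay in protein-coding genes, and these had a median fold enrichment of 4.60, against 5.78 in the 340 domains with under 25%. AP1 of day 4 was near the summit in 28.7% (21.6 to 37.0%) of the former and 48.2% (43.0 to 53.5%) of the latter, while for SEP3 at day 2 the shares were 42.6% (34.4 to 51.3%) and 45.0% (39.8 to 50.3%). In narrower BSs the AP1 day 4 shares had the same order, at 4.74% and 9.95%, with median fold enrichments of 2.97 and 3.19. Whether transcription of the genes has a part in the width or the signal was not tested.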

How the data were processed

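ChIP-seq was carried out with SEP3, AP1-GR and mock samples of days 2, 4 and 8. Per the labels the authors used CASAVA 1.7 and 1.8 and aligned reads with Bowtie 0.12.7. The deposited lists give position, summit and −log10 q-value as MACS, the peak caller of the authors, wrote them. Fold enrichment is the deposited ratio over control. Listed genes are also theirs. Read depth was not analysed here. Blank lines in AP1 lists of days 4 (230) and 8 (111) were dropped. Width was end − start + 1. Summits within 150 bp counted as shared, or overlaps of 1 bp where stated. Shares were compared by two-sided Fisher's exact test with Benjamini-Hochberg adjustment over 7 tests. Wilson 95% intervals cover counting error only. Calculations used Python 3.11.15, numpy 2.4.6, pandas 2.3.3 and scipy 1.17.1 and were tested on simulated data. Sequence and annotation were TAIR10 (RefSeq), of ecotype Columbia, while the plants were Landsberg. Transcription factors were found by words in RefSeq product names. The named domains are the 12 widest, the 12 of highest fold enrichment with ties, and those listing a member of 6 gene lists, besides those said to be chosen otherwise. Members and lists were chosen with earlier results of these data known. Alternatives changed the overlap rule, the width limit, fold enrichment, −log10 q, motif window and gene borders.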

Additional observations from a re-analysis of the deposited data

How the results depend on the processing

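Of 73 alternatives, 58 kept the direction and the side of the threshold, or the direction and size where no test was run. The results without a test were AP1 at day 8 and the transcription factor share. Among BSs with at least the median fold enrichment of the broad domains, the difference, broad minus narrower, was -4.13 points for SEP3 at day 4, -5.22 points for the CArG box (both opposite in sign), 6.42 points for SEP3 at day 2 and 25.5 points for AP1 at day 8. With a reciprocal overlap of 50% it was 0.769 points for AP1 at day 2 and 8.72 points for AP1 at day 8. With genes extended by 1000 bp upstream it was -4.17 points for summits in genes, which was also negative with protein-coding genes only (-0.622) and at or above the median fold enrichment (-2.13), neither past 0.05. For AP1 at day 8 the 37.2 points also moved to 47.8 by overlap, 23.8 and 41.7 with summits within 50 and 300 bp, 42.4 and 32.2 with limits of 1000 and 600 bp. Requiring a −log10 q of 10 or more gave 25.8 points. Domains with under 25% of their bases in protein-coding genes, and zinc finger products left out of the transcription factors, both chosen after seeing the data, changed no direction or call. At or above the median fold enrichment every broad domain overlapped a SEP3 BS of day 4, so the SEP3 day 4 change is one of summit distance. The cause of these changes was not tested. No paired analysis was possible because each list combines its replicates. The lists give no read counts, and a site missing from a short list such as AP1 at day 2 (498 BSs) may have been under its threshold.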
